A study of Mus musculus with 12 samples.

Results

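Cd5l, Fcna and Fcnb encode soluble pattern-recognition proteins, and they are the 3 genes described here out of 56953 in the tables. They were chosen by their very strong measured expression in macrophages of these same libraries, so the levels in macrophages against monocytes chose them and are given as a description only. That description held for Cd5l and Fcna but not for Fcnb, which was highest in Ly6Chi monocytes and reached at most 11.1 TPM (a length-scaled level) in a macrophage library.

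RNA was sequenced from bone marrow cells of female C57BL/6J mice at 8 weeks of age in 4 groups of 3 libraries. All mice carried Rank cre/+ and R26.eYFP fl/+, in which Cre driven by the Rank locus turns on the reporter eYFP in macrophages of embryonic descent. Macrophages were gated as F4/80hi CD206+ VCAM1+ and split into eYFP+ cells, labelled embryonic, and eYFP- cells, labelled as derived from adult hematopoietic stem cells, so the split rests on how completely the Cre recombines. Monocytes of the same mouse line were gated as Ly6Chi or Ly6Clo, which divides them into the classical cells with much surface Ly6C and the patrolling cells with little. The labels do not say whether the 3 libraries of a group came from separate mice, so p-values measure only the spread between these libraries.

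Cd5l, also known as AIM, is a secreted protein built of scavenger receptor cysteine-rich domains that travels in serum bound to IgM pentamers and is made chiefly by tissue macrophages of organs such as liver, spleen and bone marrow. Ficolins are lectins with a collagen-like stem and a fibrinogen-like head that bind acetylated sugars on microbes and dying cells and start the lectin pathway of complement through MASP proteases. Mice have a pair of ficolin genes: Fcna, which encodes ficolin A, a serum protein of liver and spleen macrophages, and Fcnb, which encodes ficolin B, a protein of myeloid precursors and granules.

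The 250 bases before the RefSeq start of each gene are shown because Cd5l and Fcna ordered the 4 groups alike by their mean levels, and Fcnb did not. The sequences are RefSeq promoters in build GRCm38.p6, written 5′ to 3′ on the strand of the gene, at chr3:87357631-87357880 (plus strand) for Cd5l, chr2:25627975-25628224 (minus strand) for Fcna and chr2:28084879-28085128 (minus strand) for Fcnb. Capitals mark TGCTGA or its reverse complement TCAGCA, the letters on either side of the element that MAF proteins bind, joined with the base or bases between them where a facing pair lies 1 or 2 bases apart.
Cd5l: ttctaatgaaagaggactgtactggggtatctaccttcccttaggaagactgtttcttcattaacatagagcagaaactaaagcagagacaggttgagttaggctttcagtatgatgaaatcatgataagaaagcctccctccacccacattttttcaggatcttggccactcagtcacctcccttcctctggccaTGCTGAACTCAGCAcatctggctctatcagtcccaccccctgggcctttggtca
Fcna: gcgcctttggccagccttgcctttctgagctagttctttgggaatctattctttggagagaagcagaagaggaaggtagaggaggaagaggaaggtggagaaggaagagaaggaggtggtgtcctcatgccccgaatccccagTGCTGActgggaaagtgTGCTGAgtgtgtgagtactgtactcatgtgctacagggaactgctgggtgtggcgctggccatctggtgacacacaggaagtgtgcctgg
Fcnb: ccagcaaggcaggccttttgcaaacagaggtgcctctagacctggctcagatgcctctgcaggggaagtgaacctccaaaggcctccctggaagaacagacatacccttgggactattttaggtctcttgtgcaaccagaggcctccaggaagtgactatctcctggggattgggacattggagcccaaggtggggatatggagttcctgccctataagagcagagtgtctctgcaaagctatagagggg

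The Cd5l promoter held TGCTGA and TCAGCA facing each other, starting 54 and 46 bases before the start, and the Fcna promoter held TGCTGA at 107 and 90 bases before it. The Fcnb promoter held neither. These letters, read on both strands, stood in 16.1% of 32851 RefSeq promoters of the same length, 2 or more copies stood in 1.66%, and a facing pair 1 or 2 bases apart stood in 4 promoters (0.0122%), those of Cd5l, Gm5600, Gm33479 and Gm52309. Of these, Gm5600 had group means of at most 0.0574 TPM, and Gm33479 and Gm52309 were not matched to the tables. AGGAAG, the core of the element bound by the macrophage factor PU.1, was found on either strand 2 times in the Cd5l promoter, 5 times in the Fcna promoter and 1 time in the Fcnb promoter, and 29.5% of all promoters held a copy. AGGTCA, a nuclear receptor element, was in none of the 3 windows and in 14% of all promoters. The motifs were chosen with the Cd5l sequence in view, and a match is a description of letters and not of binding.

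Total counts ran from 26390927 to 48618187 per library, and 16434 to 27634 genes had a count. Ly6Clo replicate 2 and eYFP+ replicate 1 stood apart from their groups: over 27500 genes their log-scale values correlated at 0.923 to 0.927 and at 0.963 to 0.965 with the other replicates, against 0.98 and 0.984 between those others, and results of the 3 genes that rest on them are also given without them. By their markers, 14 of 14 resident macrophage genes were higher in macrophages than in monocytes (DESeq2, adjusted p under 0.05), as were 20.7% of the 22028 genes tested in that contrast, while 15.3% were lower. Of 10 monocyte genes 7 were lower and 1, Treml4, was higher in macrophages. Genes listed as markers of other cells were found too, and all 11 erythroid genes were higher in macrophages. The 15 neutrophil and precursor genes summed to 6990 to 17343 TPM in Ly6Clo libraries, beside 2534 to 2825 TPM of the monocyte genes. In Ly6Chi libraries they summed to 20507 to 27375 TPM, beside 8368 to 9709 TPM. Whether this RNA came from other cells or from the sorted cells themselves was not tested. The genes of the gate itself, Adgre1 (F4/80), Mrc1 (CD206) and Vcam1, are among those 14. Levels below are TPM, which are counts per gene length scaled to the same sum in each library, and differences are log2 fold changes of counts with their standard errors.

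Cd5l was among the most abundant messages of macrophages. It stood at 2197, 2432 and 2347 TPM in eYFP+ macrophages (mean 2325 ± 119, SD, n = 3) and at 1903, 2162 and 1868 TPM in eYFP- macrophages (1978 ± 161), ranks 46 to 59 among all genes of a library. It stood at 10.6, 9.40 and 17.9 TPM in Ly6Clo monocytes (12.6 ± 4.58) and at 3.56, 3.52 and 4.17 TPM in Ly6Chi monocytes (3.75 ± 0.362). The groups did not overlap anywhere in this order, from eYFP+ macrophages down through eYFP- macrophages and Ly6Clo monocytes to Ly6Chi monocytes, and between neighbouring groups the fold difference of the means was smallest for the macrophage groups. The difference of macrophages to monocytes, which the choice of genes used, was 8.18 ± 0.21 on the log2 scale.

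Fcna, the ficolin of macrophages, was higher still. It stood at 8888, 7346 and 7611 TPM in eYFP+ macrophages (7948 ± 824) and at 7665, 6030 and 6337 TPM in eYFP- macrophages (6677 ± 869), ranks 13 to 17. It stood at 43.4, 57.6 and 60.8 TPM in Ly6Clo monocytes (53.9 ± 9.25) and at 6.03, 8.20 and 8.43 TPM in Ly6Chi monocytes (7.55 ± 1.33). The macrophage groups overlapped, and the monocyte groups lay far below them and apart from each other. The difference of macrophages to monocytes was 8.40 ± 0.22 on the log2 scale, again a description. Cd5l took 0.215% to 0.262% and Fcna 0.438% to 0.684% of all counts of a macrophage library.

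**Figure D1:**
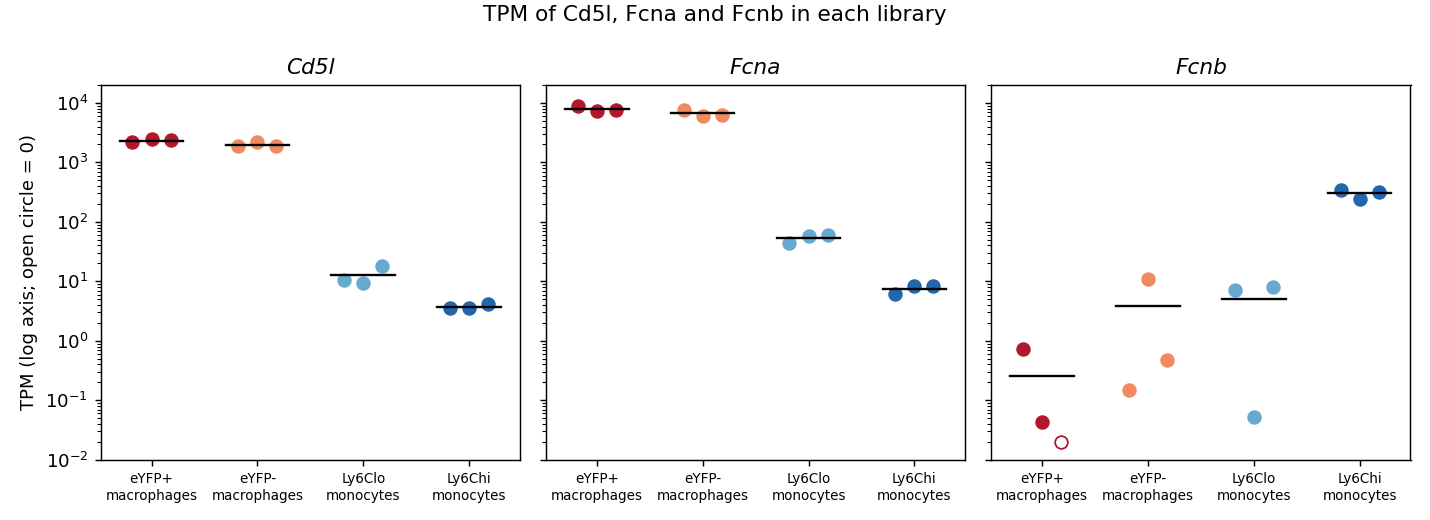
TPM (log axis) of Cd5l, Fcna and Fcnb in each of 12 libraries, 1 circle per library and a line at the mean of each group of 3; an open circle is a library with 0 counts. Cd5l (1868 to 2432 TPM) and Fcna (6030 to 8888 TPM) sit high in the macrophage libraries and low in the monocyte libraries, and Fcnb sits at 241 to 340 TPM in Ly6Chi monocytes and at most at 11.1 TPM elsewhere.

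Fcnb was arranged otherwise. It stood at 340, 241 and 319 TPM in Ly6Chi monocytes (300.0 ± 52.6), ranks 455 to 668, from 7793, 4794 and 6382 counts. The Ly6Clo libraries held 190, 1 and 191 counts (7.08, 0.052 and 7.97 TPM), so replicate 2 alone was near 0. In that library the 2573 genes within 2 points of the GC content of Fcnb (54.1%) had a median of -0.67 log2 relative to the other replicates. Macrophages held 18, 1 and 0 counts in eYFP+ libraries (0.73, 0.0429 and 0 TPM) and 4, 301 and 13 counts in eYFP- libraries (0.149, 11.1 and 0.484 TPM), so eYFP- replicate 2 held more than any Ly6Clo library and the other macrophage libraries at most 18. The 0 in eYFP+ replicate 3 allows at most 3 counts of the 48618187 in that library, counting error only. Every Ly6Chi library was above every other library, while the remaining groups overlapped one another. The difference of macrophages to monocytes was -5.36 ± 1.27 on the log2 scale, a description, and was -7.08 without eYFP- replicate 2 and -7.29 without eYFP+ replicate 1.

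Fcna and Fcnb can be told apart by reads: the longest run of identical bases between their longest GENCODE M21 transcripts (1374 and 1170 bases) was 19 bases. The Cd5l transcript (2036 bases) shared no run of 31 bases with any other gene, and neither did that of Fcnb. Fcna shared 90 of its 1374 exon bases (6.55%) with Fcnaos, an antisense gene on the opposite strand. Whether counting used strand is not stated, so reads of Fcna and Fcnaos in those bases cannot be told apart. Fcnaos itself had 89 to 162 counts in macrophage libraries and 0 to 6 in monocyte libraries, beside 192653 to 256725 and 162 to 1713 counts of Fcna.

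Whether the levels of these genes differ with descent was asked by comparing eYFP+ with eYFP- macrophages. Cd5l was 0.27 ± 0.29 higher on the log2 scale in eYFP+ cells (95% interval -0.29 to 0.83, DESeq2 adjusted p = 1), although its TPM did not overlap between the groups. Fcna was 0.28 ± 0.30 higher (-0.31 to 0.88, DESeq2 adjusted p = 1), with overlapping groups. Neither difference passed the test, and the intervals leave room for anything from slightly lower to almost 1 log2 unit higher in eYFP+ cells. Without eYFP+ replicate 1 the values were 0.24 for Cd5l and 0.11 for Fcna, and without eYFP- replicate 1 or 2 that of Fcna was 0.47 or 0.15. Marker levels differed between these groups too. The summed TPM of the 14 resident macrophage markers was 65269 to 72320 in eYFP+ and 54845 to 55985 in eYFP- libraries, higher in eYFP+ cells as the means of Cd5l and Fcna were, with 0 of 14 called by DESeq2 or at an unadjusted p under 0.05. The summed TPM of 11 erythroid markers was 9027 to 14530 in eYFP+ and 22486 to 35306 in eYFP- libraries, and that of 7 T and NK cell markers was 7.92 to 21.3 and 59.4 to 119, with no listed gene at 0 in a whole group. Of 7 stem and progenitor markers 3 were lower in eYFP+ cells (DESeq2), as were 3 of 10 monocyte markers, against 1.92% of all genes. Their medians were -3.38 and, over the 8 tested, -1.43 log2, against 0.05 for all genes. The summed TPM of the 7 overlapped, at 578 to 687 in eYFP+ and 620 to 668 in eYFP- libraries. That of the 10 was 685 to 1124 and 685 to 785. With edgeR the calls of Ccr2, Spn, Kit and Flt3 were lost (adjusted p = 0.0809, 0.0593, 0.202 and 0.0626). The part of all these markers in the values of Cd5l and Fcna was not tested.

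Of the 3 genes, 0 passed in either direction (DESeq2), against 0.156% of 21195 genes called higher and 1.92% called lower in eYFP+ cells. At an unadjusted p under 0.05 the count was 1, Fcnb, and edgeR called 0. The groups of 1 gene, Cd5l, lay apart with eYFP+ above eYFP-, as for 5.43% of all genes, and 0 lay apart the other way, as for 9.92%.

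The Fcnb difference in macrophages was -3.62 ± 1.81 on the log2 scale (95% interval -7.18 to -0.07, unadjusted p = 0.0458 and adjusted p = 0.546 in DESeq2). It rested on single libraries. Without eYFP- replicate 2, which held 301 counts beside 4 and 13 in its group, it was -0.18, and without eYFP+ replicate 1 it was -7.51 (DESeq2 adjusted p = 0.0418, with adjusted p from 0.0418 to 1 over the alternatives that gave one). The summed TPM of 15 neutrophil and precursor markers was also highest in eYFP- replicate 2 among macrophage libraries, at 2857 against 265 and 917 in the other eYFP- libraries and 125 to 217 in eYFP+ libraries, with none of the 15 genes at 0 in a whole group. Of those markers 6 of 15 were lower in eYFP+ than in eYFP- macrophages, against 1.92% of all genes, with a median of -3.73 log2 against 0.05 for all genes. Mpo (myeloperoxidase) differed by -4.49 ± 0.73 and Prtn3 (a serine protease of granules) by -3.84 ± 0.51, with DESeq2 adjusted p of 4.74e-07 and 5.77e-11. The Mpo call was lost with edgeR (adjusted p = 0.0528). Other calls rested on eYFP- replicate 2, without which Ngp, a granule protein, went from -3.73 to -0.25 and the siderophore-binding Lcn2 from -4.14 to -0.65, and edgeR gave them adjusted p of 0.269 and 0.399. The part of neutrophils and their precursors in the Fcnb counts of macrophages was not tested.

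**Figure D2:**
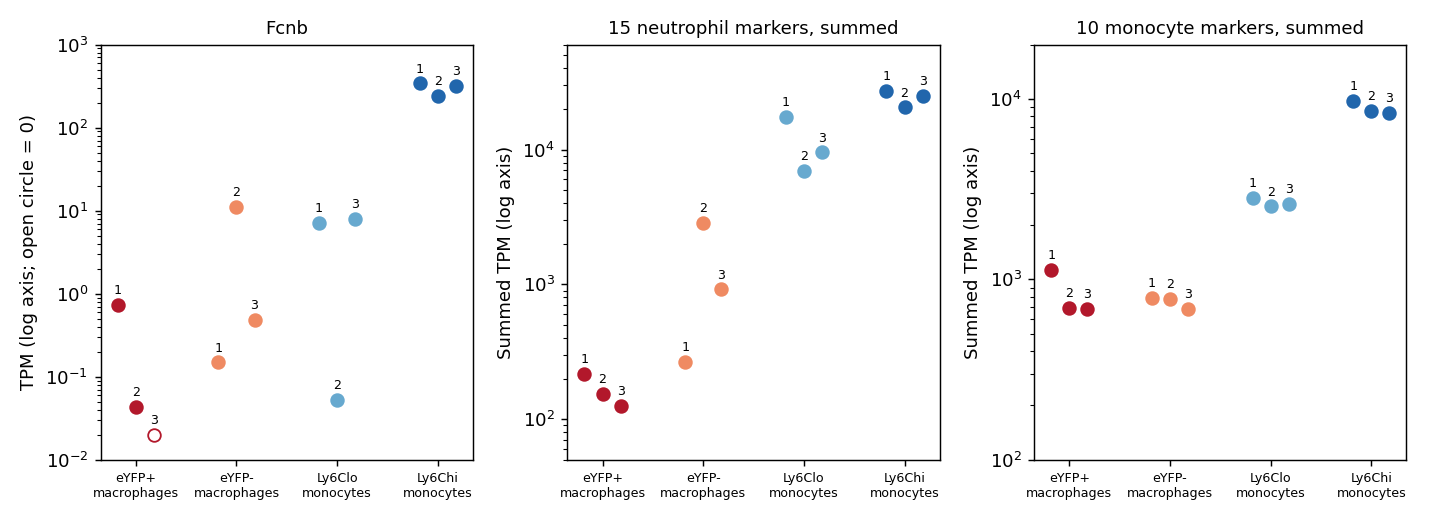
TPM of Fcnb (left) and summed TPM of 15 neutrophil markers (middle) and 10 monocyte markers (right), each on a log axis, with 1 numbered circle per library; the number is the replicate and an open circle is 0. Among macrophage libraries eYFP- replicate 2 is highest for Fcnb (11.1 TPM) and for the neutrophil markers (2857), and Ly6Chi monocytes are highest in all 3 panels.

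The other comparison that did not choose the genes was Ly6Chi against Ly6Clo monocytes. All 3 genes passed it, Cd5l and Fcna lower and Fcnb higher in Ly6Chi cells. Cd5l fell by 1.75 ± 0.30 on the log2 scale (95% interval -2.33 to -1.17, DESeq2 adjusted p = 3.40e-07), which is 3.36-fold between the TPM means. Fcna fell by 2.84 ± 0.31 (-3.45 to -2.23, DESeq2 adjusted p = 1.83e-17), or 7.14-fold between the means. Without Ly6Clo replicate 2 these values were -1.89 and -2.75, so they did not rest on that library.

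Fcnb rose by 5.94 ± 1.79 on the log2 scale (2.43 to 9.44, DESeq2 adjusted p = 0.0150), or 59.6-fold between the TPM means. The call was lost with edgeR, at a log2 difference of 5.94 and an adjusted p of 0.0720, and adjusted p ran from 3.17e-09 to 0.0720 over the alternatives that gave one. Without Ly6Clo replicate 2 the difference was 5.36 (DESeq2 adjusted p = 0.0319). Granule enzyme genes of neutrophil precursors were higher in Ly6Chi cells as well: Elane by 8.71 ± 1.70, Mpo by 5.68 ± 0.73, Prtn3 by 5.47 ± 0.51 and Ctsg by 3.93 ± 1.07 (DESeq2 adjusted p of at most 0.00549), of which the Ctsg call was lost with edgeR (adjusted p = 0.105) and, in DESeq2, without Ly6Clo replicate 1, Ly6Chi replicate 1 or eYFP+ replicate 1 (0.0865, 0.0508 and 0.0512). Of the 15 neutrophil and precursor markers 5 were higher and 2 lower, with a median of 1.13 log2 against 0.01 for all genes. The 2 lower were Mmp9 (-5.90 ± 1.89) and Ly6g (-3.10 ± 0.99), with DESeq2 adjusted p of 0.0257 and 0.0256. Both of these calls were lost with edgeR (adjusted p = 0.0876 and 0.149). The part of the 15 markers in the Fcnb difference was not tested. Of all 21195 genes, 5.08% were called lower and 3.74% higher in Ly6Chi cells. The TPM groups of each of the 3 genes lay apart, as did those of 13% of all genes with Ly6Chi lower and 15.4% with Ly6Chi higher.

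**Figure D3:**
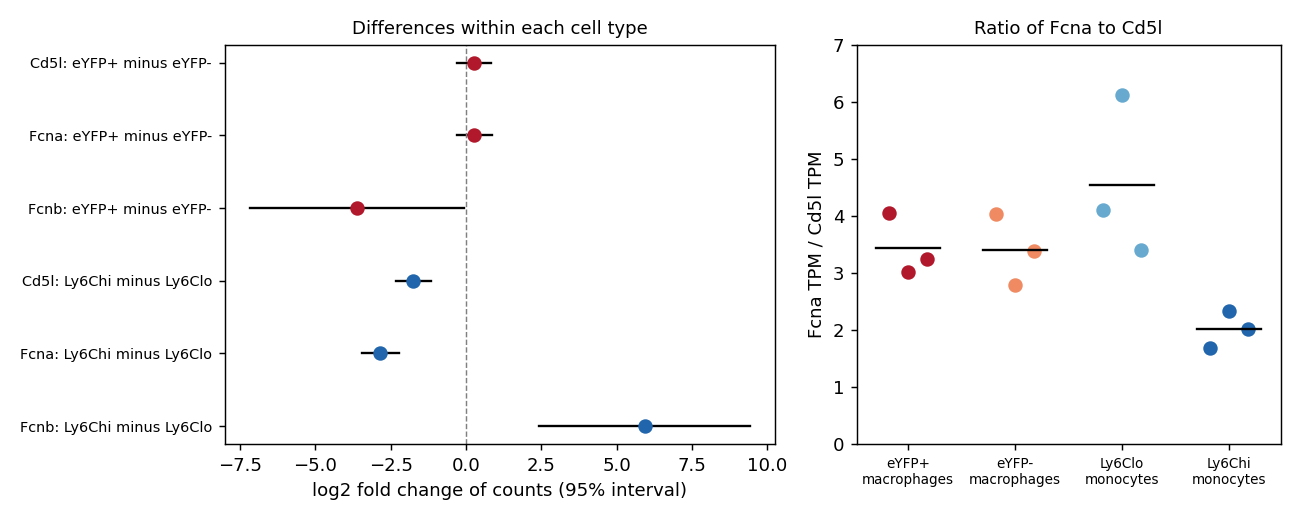
Left, log2 fold changes of counts with 95% intervals (DESeq2) for each gene within macrophages (red) and within monocytes (blue); the dashed line is 0. Right, the ratio of Fcna to Cd5l TPM in each library with a line at the group mean. The macrophage intervals of Cd5l and Fcna cross 0, those of monocytes do not, and the ratio is lowest in Ly6Chi monocytes (1.69 to 2.33).

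Macrophage markers moved the same way between the monocyte groups. Of 14 resident macrophage markers, 11 were lower in Ly6Chi than in Ly6Clo monocytes (DESeq2), against 5.08% of all genes, with a median of -2.03 log2 against 0.01 for all genes. Their summed TPM was 1394 to 3450 in Ly6Clo, 601 to 689 in Ly6Chi and 54845 to 72320 in macrophage libraries, and none of the 14 was at 0 in a whole group. As a share of its mean in macrophages, Cd5l stood at 0.437% to 0.830% in Ly6Clo libraries and at 0.163% to 0.194% in Ly6Chi libraries, and Fcna at 0.594% to 0.832% and 0.0824% to 0.115%. The adhesion molecule Vcam1, used to gate the macrophages, stood at 0.259% to 0.831% and 0.132% to 0.163%, and the iron exporter Slc40a1 at 0.532% to 0.697% and 0.160% to 0.211%. Other markers stood higher in Ly6Clo cells, such as the F4/80 gene Adgre1 at 29.6% to 41.1% and C1qb at 3.17% to 9.43%. Fewer macrophages and less RNA per cell cannot be told apart in such bulk libraries, and the part of macrophages in the monocyte values of Cd5l and Fcna was not tested.

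**Figure D4:**
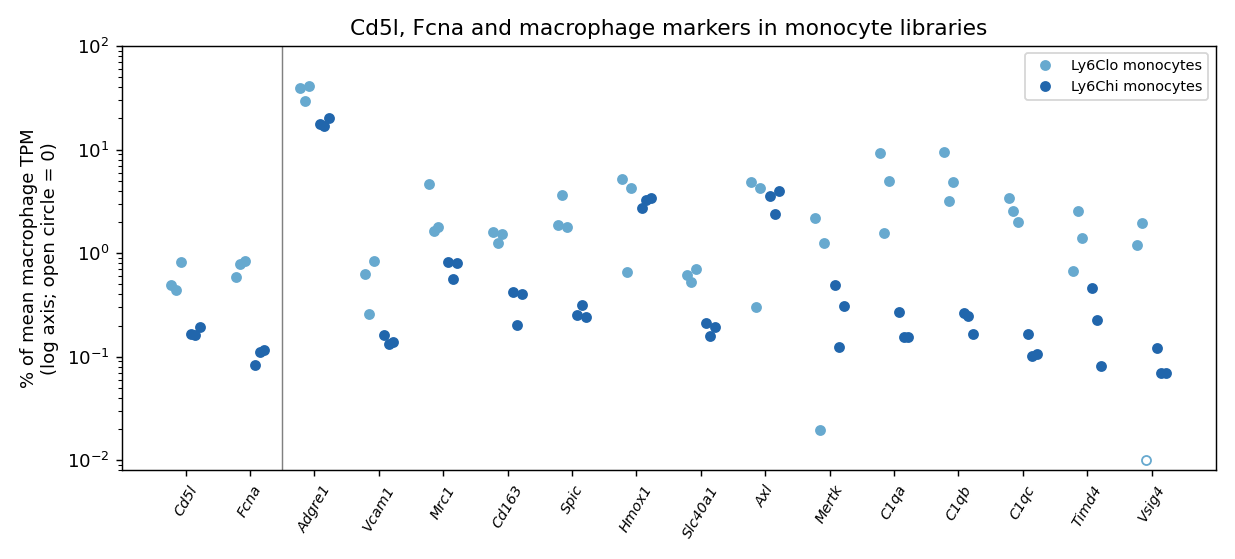
TPM of Cd5l, Fcna and 14 macrophage markers in each monocyte library as a percent of the mean over macrophage libraries (log axis; light blue Ly6Clo, dark blue Ly6Chi, open circle 0). Cd5l and Fcna lie below 1% in each monocyte library, near Vcam1 and Slc40a1, with Ly6Clo above Ly6Chi.

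The ratio of Fcna to Cd5l was close in the macrophage groups. It was 4.04, 3.02 and 3.24 in eYFP+ and 4.03, 2.79 and 3.39 in eYFP- macrophages, on the TPM scale. The difference of its log2 was 0.02 (exact two-sided permutation test, p = 0.9, n = 3 against 3, for which the smallest possible p is 0.1). The ratio was 4.11, 6.12 and 3.41 in Ly6Clo and 1.69, 2.33 and 2.02 in Ly6Chi monocytes, which did not overlap. Library makeup differed in the replicate with 6.12: in Ly6Clo replicate 2, the 2336 genes within 2 points of the GC content of Fcna (55.5%) had a median of -0.84 log2 relative to the other replicates, and the 2796 genes near that of Cd5l (51.5%) had -0.37.

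Genes whose pattern over the 12 libraries was nearest were found by the root mean square difference of centred log2(TPM + 1) among 13927 genes. Nearest to Cd5l were Slc40a1 (0.28 log2 units), Vcam1 (0.36), the chemokine receptor Ccr3 (0.45), the organic anion transporter Slco2b1 (0.49) and Slc45a3 (0.53). Nearest to Fcna were Ccr3 (0.43), Slc40a1 (0.48), Vcam1 (0.53), Slco2b1 (0.63) and the C-type lectin Cd209f (0.73). Cd5l and Fcna lay 0.51 apart, with 4 genes nearer to Cd5l and 2 nearer to Fcna than they were to each other. Fcnb lay 6.83 from Cd5l and 7.17 from Fcna, and among the nearest to it were fibronectin Fn1 (0.86), thrombospondin Thbs1 (0.92), Ly6c1 (1.13) and Gm5960 (1.14). The distances of Fcnb to its nearest genes were thus larger than those of Cd5l and Fcna to theirs.

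Of the lectin pathway, the other recognition proteins and the MASP proteases were near 0 TPM in every group, while the components C2, C3 and C4b were above them in macrophages. The other recognition proteins, the mannose-binding lectins Mbl1 and Mbl2 and the collectins Colec10 and Colec11, reached at most 1.69 TPM in a library (Colec11 in eYFP- replicate 1), and the proteases Masp1 and Masp2 reached at most 0.183 TPM. Fcna at 6030 TPM or more in macrophages and Fcnb at 241 TPM or more in Ly6Chi monocytes stood far above these 6 genes on the per-length scale. Among the substrates, C2, cleaved by the MASP enzymes, was 5.75 ± 0.33 log2 higher and C4b, another substrate, 3.85 ± 0.67 higher in macrophages than in monocytes (DESeq2 adjusted p = 1.34e-67 and 8.79e-08), at group means of 7.80 to 12.3 and 9.23 to 19.8 TPM in macrophages and of 0.151 to 0.181 and 0.461 to 1.63 TPM in monocytes. C3, the shared downstream component, was lower in macrophages (-3.25 ± 0.46) and 3.23 ± 0.65 higher in Ly6Chi than in Ly6Clo monocytes (DESeq2 adjusted p = 3.34e-11 and 4.34e-05), with 504 ± 32.8 TPM in Ly6Chi cells, the group where Fcnb was highest. Of the 6 proteases, substrates and inhibitors, 2 were higher and 1 lower in macrophages, against 20.7% and 15.3% of all genes, with 0 called between eYFP+ and eYFP- cells by DESeq2 or edgeR and 1, the C1 inhibitor gene Serping1, at an unadjusted p under 0.05 in DESeq2.

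Other soluble recognition proteins differed in both directions. In macrophages against monocytes 5 of 15 were higher and 3 lower, against 20.7% and 15.3% of all genes, and in Ly6Chi against Ly6Clo monocytes 3 were higher and 4 lower, against 3.74% and 5.08% (DESeq2, with medians over the 10 tested of 1.93 and -2.72 log2, against 0.08 and 0.01 for all genes). The C1q chains, which start the classical pathway, moved in the direction of Cd5l and Fcna in both comparisons: C1qa, C1qb and C1qc were 6.36 to 7.37 log2 higher in macrophages and differed by -4.71 to -4.40 in Ly6Chi against Ly6Clo monocytes, with C1qb at 14708 ± 357 TPM in eYFP+ macrophages. Pglyrp1, a peptidoglycan-binding protein of granules, was higher in monocytes than in macrophages like Fcnb, but lower in Ly6Chi than in Ly6Clo cells, at -2.52 ± 0.67 (DESeq2 adjusted p = 0.00400; edgeR 0.0681). The galectin Lgals9 was higher in macrophages (DESeq2 adjusted p = 4.77e-05) but also 2.21 ± 0.32 higher in Ly6Chi than in Ly6Clo cells. Lbp, which hands lipopolysaccharide to CD14, was lower in eYFP+ than in eYFP- macrophages, at -2.63 ± 0.65 (DESeq2 adjusted p = 0.00557) and at 0.551 and 3.52 TPM. It was the only one of the 15 called there, against 0.156% of all genes called higher and 1.92% called lower. Its adjusted p was 0.170 with edgeR and 0.0723 with DESeq2 without eYFP- replicate 2.

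**Figure D5:**
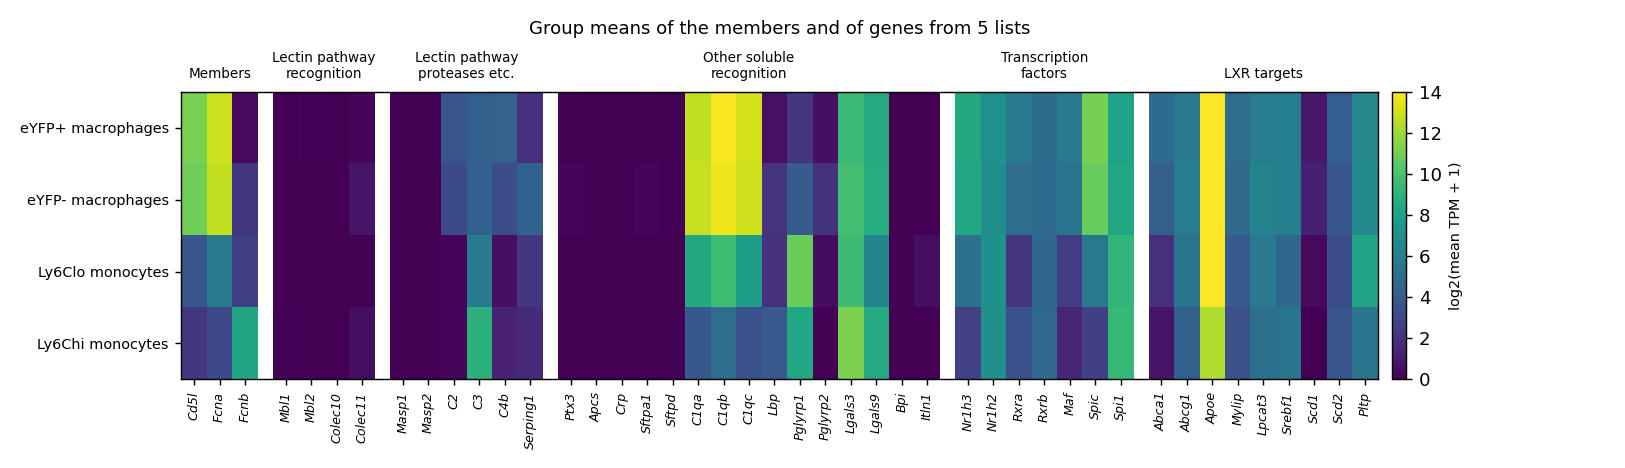
Group means as log2(mean TPM + 1), dark for low and yellow for high, for Cd5l, Fcna and Fcnb and for other genes of 5 lists (columns) in the 4 groups (rows). Fcna and the C1q genes are high in both macrophage groups, while Mbl1, Mbl2, Colec10, Masp1 and Masp2 are dark in all 4.

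Among the 15 other proteins with the scavenger receptor cysteine-rich domain of Cd5l, 4 were higher in macrophages, close to the 20.7% of all genes, and the median of the 13 tested was 0.15 log2 against 0.08. The 4 were Cd163, the hemoglobin receptor, 6.97 ± 0.30 higher, Marco, a bacterial scavenger receptor, 9.10 ± 0.81 higher, Loxl3, a lysyl oxidase, 3.23 ± 0.33 higher, and Lgals3bp 2.29 ± 0.25 higher (DESeq2 adjusted p of at most 4.76e-18). Cd5l stood above each of them in level, since Lgals3bp reached 1451 ± 32.8 TPM and Cd163 1069 ± 351 TPM in eYFP+ macrophages. Between macrophage groups 1 of the 15 was called higher in eYFP+ cells and 0 lower, against 0.156% and 1.92% of all genes. This was Msr1, another scavenger receptor, 1.54 ± 0.36 higher (DESeq2 adjusted p = 0.00209, edgeR 0.0677).

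Of 8 partners and receptors, 3 were higher and 1 lower in macrophages, against 20.7% and 15.3% of all genes. Cd36, a fatty acid receptor reported to take up Cd5l, was 490 ± 262 TPM in Ly6Clo and 8.53 ± 2.05 TPM in Ly6Chi monocytes, a fall of 5.87 ± 0.41 (DESeq2 adjusted p = 6.95e-43), against 70.2 ± 3.51 to 86.0 ± 10.4 TPM in macrophages. Ighm, the IgM heavy chain to which Cd5l binds in serum, was lower in macrophages than in monocytes (-4.95 ± 0.27) and in eYFP+ than in eYFP- macrophages (-1.28 ± 0.39; DESeq2 adjusted p = 8.01e-71 and 0.0479). The second of these calls was lost with edgeR (adjusted p = 0.154), and in DESeq2 without any single eYFP- or Ly6Chi library or without eYFP+ replicate 2 or 3 (0.0862 to 0.289). Jchain, which joins IgM pentamers, went the other way and was 4.86 ± 0.95 higher in macrophages (DESeq2 adjusted p = 2.59e-06), at no more than 1.44 TPM in any library. Calr and Lrp1, a receptor pair for collectin-like stems, were called higher in macrophages by DESeq2 (0.82 ± 0.29 and 0.78 ± 0.30, adjusted p = 0.0166 and 0.0289), but neither call held in all fits without 1 library, with adjusted p up to 0.0866 and 0.181, or with limma on log2(TPM + 1) (0.0782 and 0.0948).

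The transcription factors linked to Cd5l and the targets of the nuclear receptor LXR, of which Cd5l is one, were also fixed as lists. Of 8 factors, 5 were higher and 1 lower in macrophages, against 20.7% and 15.3% of all genes, with a median of 3.25 log2 against 0.08 for all genes. Nr1h3, which encodes LXR alpha, was 4.46 ± 0.22 higher, Maf 4.04 ± 0.31 and Spic, the factor of heme-handling macrophages, 6.86 ± 0.31 higher (DESeq2 adjusted p of at most 6.90e-38), while Spi1, which encodes PU.1, was lower (-1.18 ± 0.28). From Ly6Clo to Ly6Chi monocytes Nr1h3 fell by 2.57 ± 0.31, Spic by 3.18 ± 0.44 and Maf by 1.36 ± 0.44 (DESeq2 adjusted p = 2.21e-14, 7.53e-11 and 0.0262), as Cd5l and Fcna did, whereas Rxra, the partner of LXR, rose by 1.62 ± 0.47 (DESeq2 adjusted p = 0.0114). In that comparison 1 of the 8 was higher and 3 were lower, against 3.74% and 5.08% of all genes, with a median of -0.04 log2 against 0.01. The Maf and Rxra calls in monocytes were lost with edgeR (adjusted p = 0.0865 and 0.0659). Without Ly6Clo replicate 2 Maf differed by -0.85 (DESeq2 adjusted p = 0.14), and its call was also lost without Ly6Chi replicate 2 or 3 or eYFP- replicate 3 (0.0985, 0.165 and 0.0502). The Rxra call was lost without Ly6Chi replicate 1 or 2 (DESeq2 adjusted p = 0.112 and 0.0735). Of the 8 factors 0 were called between the macrophage groups by DESeq2 or edgeR, and 0 at an unadjusted p under 0.05 in DESeq2.

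Of the 9 other LXR targets, 6 were higher in macrophages and 5 were lower in Ly6Chi than in Ly6Clo monocytes, against 20.7% and 5.08% of all genes, with medians of 0.87 and -1.08 log2 against 0.08 and 0.01. Between eYFP+ and eYFP- macrophages 0 were called by DESeq2 or edgeR, and 0 had an unadjusted p under 0.05 in DESeq2. Apoe, which carries lipids, was 1.25 ± 0.26 higher in macrophages and fell by 2.23 ± 0.37 from Ly6Clo to Ly6Chi monocytes. Its Ly6Clo level (23918 ± 4349 TPM) lay within the range of the macrophage libraries (22056 to 40390 TPM), unlike Cd5l, whose Ly6Clo level stayed below 1% of theirs. The cholesterol exporter Abca1 was 3.83 ± 0.33 higher in macrophages and fell by 1.87 ± 0.47 between the monocyte groups (DESeq2 adjusted p = 7.16e-30 and 0.00181; the call within monocytes was lost with limma on log2(TPM + 1), adjusted p = 0.294).

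Of the 13 other genes with the fibrinogen-like domain of ficolins, 2 were higher and 1 lower in macrophages, against 20.7% and 15.3% of all genes. Angptl4, a lipase inhibitor, was 6.73 ± 0.65 higher, and Fgl2, a fibrinogen-like protein of myeloid cells, was lower (-2.74 ± 0.36), with Fgl2 highest in Ly6Chi monocytes (163 ± 24.3 TPM) as Fcnb was. Angpt1, a ligand of the TIE2 receptor, was lower in eYFP+ than in eYFP- macrophages (-3.32 ± 0.79, DESeq2 adjusted p = 0.00265; edgeR 0.167, and DESeq2 0.0553 without eYFP- replicate 2), at 0.649 and 7.02 TPM.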

How the data were processed

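Full-length cDNA of sorted bone marrow cells was amplified and read from both ends. As its methods state, the authors trimmed and error-corrected reads, removed ribosomal RNA and aligned to GRCm39 with Ensembl annotation. The deposited counts are whole numbers of unambiguous read pairs per gene from featureCounts, and TPM values are counts per gene length scaled by the authors. A further deposited table holds variance-stabilised counts near log2. It was used for the correlations between libraries, same-numbered ones included, and for an alternative of the nearest genes. No molecular identifiers were used, so limits from counts cover counting error only.

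Counts were fitted with DESeq2 1.42.0 in R 4.3.3 over the 12 libraries with group as the only factor. Wald tests were adjusted by Benjamini-Hochberg over the genes that passed independent filtering of DESeq2 on mean count (21195 of 42837 within macrophages and within monocytes, 22028 between them), with calls at adjusted p under 0.05, and edgeR 4.0.16 and limma 3.58.1 were alternatives. On simulated counts of the macrophage comparison over 29222 genes, DESeq2 made 154 calls of which 59 were false and recovered 77% of 4-fold changes, and edgeR made 27 calls with 1 false and recovered 26%. The ratio was compared by exact permutation with scipy. Depth was 26390927 to 48618187 counts. Sample titles gave the group and replicate of each library. Symbols came from GENCODE M21 and matched 91.4% of identifiers. Transcript lengths, exons and GC content are of that annotation, and promoters are RefSeq sequences of another build than the counts.

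The members and lists were chosen with earlier results of these data known. Of each list and comparison up to 4 genes per direction with adjusted p under 0.05 and a mean of at least 50 normalized counts could be named, by adjusted p, and the text names some of these. Genes given without a call, and Fcnaos, Serping1 and Jchain, were named after their values were seen. The 5 nearest genes by pattern needed a mean of at least 1 TPM over the libraries. Values of some genes are not reported here, though list counts and sums include them. A replicate block with a count minimum was added after seeing the data.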

Additional observations from a re-analysis of the deposited data

How the results depend on the processing

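Cd5l and Fcna kept direction and side of the threshold under all 23 alternatives in both tested comparisons. For Fcnb between macrophage groups adjusted p was missing in 4 of 23 alternatives, 1 of the others changed the call, leaving out eYFP+ replicate 1, and values ran from -7.51 to -0.18 over fits without 1 library. Between monocyte groups the Fcnb call was lost with edgeR (5.94), and adjusted p was missing in 3 alternatives. The 439 macrophage and 1870 monocyte calls became 64 and 829 with edgeR, 678 and 1186 with the 6 libraries of a comparison alone, 220 and 969 with limma on log2(TPM + 1), and 109 and 874 with a pseudocount of 0.1. Without 1 library they ran from 228 (without eYFP- replicate 3) to 873 (without Ly6Clo replicate 2) and from 1208 (without Ly6Chi replicate 2) to 2310. Calls among the listed genes, 4 and 23, became 0 and 15 with edgeR and 0 and 13 with either limma scale, and ran from 2 (without eYFP- replicate 2) to 6 and from 20 to 24 without 1 library. The difference of the log2 ratio of Fcna to Cd5l ranged from -0.12 (without eYFP- replicate 2) to 0.15 without 1 library, and was -0.10 without eYFP+ replicate 1. Single named genes of the lists kept their call in 2094 alternative fits and lost it in 158. Of the 5 genes nearest to Cd5l, 2 remained with a pseudocount of 0.1 and 3 with variance-stabilised values.

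Same-numbered libraries were not taken as pairs, since the labels tie them by number only and over 2000 genes their deviations correlated at 0.202, 0.0627 and -0.00197 in macrophages and 0.042, -0.0231 and 0.00574 in monocytes. Libraries numbered 1 matched each other best in both, and the others did not. With the number as a block, macrophage calls were 1156 (444 with a count minimum), and calls of the 3 genes did not change. Fcnb rested on 0 to 301 counts in macrophage libraries.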
